A study of Mus musculus with 6 samples.

Results

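Saa3 encodes serum amyloid A3, a member of a family of small apolipoproteins that the body releases in the acute phase of inflammation. Saa1 and Saa2 come mostly from the liver, whereas mouse Saa3 is made largely outside it, by macrophages, fat cells and epithelia that meet inflammatory cytokines or bacterial products. Secreted serum amyloid A binds lipids and draws monocytes and neutrophils. In the spleen, the red pulp holds macrophages that take up worn red cells and, under demand, islands of erythroblasts, while the white pulp holds T cells and follicles, and a mesothelium covers the capsule.

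Saa3 (ENSMUSG00000040026) was 1 of 477 genes on an imaging panel, of 5294 genes measured in the series, and was chosen by its counts, which stood out in the spleen of a mouse treated with phenylhydrazine (PHZ). The genes compared with it were all the others on the panel. PHZ oxidizes hemoglobin, so that red cells lyse and new ones are needed. In the Xenium assay, probes against each gene are decoded under the microscope, which yields the position of single RNA molecules in a section. Sections of 5 µm were cut from fetal liver at embryonic day 14.5 (E14.5), from femoral marrow at postnatal day 8 (P8), from the spleen of an untreated adult and from that of an adult injected with PHZ (40 mg per kg, 2 times daily on 2 days), all wild type. The mice were C57BL/6 and carried no other allele or agent that the labels name. The label of the spleen called untreated here names no injection. The methods describe both normal spleens and a vehicle arm, so whether this mouse received vehicle is not settled. The E13.5 fetal liver and the 89-week bone marrow, both wild type, were imaged on another panel of 5050 genes without Saa3. Each condition was 1 section, both spleens shared a slide, and the time from the last injection to collection is not given in the sources used here. No test between conditions was therefore possible, and intervals in brackets are exact 95% intervals for counting error only. The level, the rise and the cells described below were also what Saa3 was chosen for, so they are a description.

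The sections held between 50523 and 117323 cells with at least 5 detected genes, and between 6435193 and 20952120 gene transcripts in them. Cells of the untreated spleen had a median depth of 84 transcripts, and those of the PHZ-treated spleen 104. The erythroid list, the check of hemolytic demand, held 10 genes that were all at least 2-fold higher after PHZ, and their summed level went from 17206 to 184098 counts per 1000000 gene transcripts (CPM). The T cell list stood at 27717 CPM without PHZ and at 5831 CPM with it, so the makeup of the sections differed widely, and CPM is a share of that makeup. At most 6 cell names were common to any 2 sections.

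In the mouse assembly GRCm38.p6, Saa3 lies on chromosome 7 in a cluster with the other serum amyloid A genes, with Saal1 next to it on one side. The 250 bases before its annotated start (chr7:46715677-46715926, minus strand, from RefSeq) are shown because they are the regulatory sequence nearest to the transcript counted here. Capitals mark matches to TATATA, the letters of a TATA box, on the gene's strand. They also mark TTNNGNAA on either strand, letters that C/EBP factors, activators of acute phase genes, can bind.

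Saa3: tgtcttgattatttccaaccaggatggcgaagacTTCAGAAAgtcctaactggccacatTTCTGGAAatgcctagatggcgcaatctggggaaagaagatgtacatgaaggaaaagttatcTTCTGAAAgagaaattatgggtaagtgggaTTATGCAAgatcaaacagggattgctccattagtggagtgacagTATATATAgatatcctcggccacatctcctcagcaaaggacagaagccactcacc

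The TATATA letters occur 2 times, overlapping, from 55 bases before the start, and 5.25% of 32851 mouse promoters of the same length hold them. TTNNGNAA occurs 4 times, the first beginning 216 bases before the start, and 36.8% of the promoters hold it at least once. The assay measured no binding or activity at this sequence.

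Saa3 was scarce in every section but the PHZ-treated spleen. It gave 306 counts in the P8 bone marrow, 47.6 CPM (42.4 to 53.2). The untreated spleen held 815 counts, 78.7 CPM (73.4 to 84.3), and the E14.5 fetal liver 2297 counts, 110 CPM (105 to 114). The PHZ-treated spleen held 20607 counts, 1803 CPM (1778 to 1828). The levels of the marrow, untreated spleen and fetal liver lay close together, with intervals that did not overlap, and the PHZ-treated spleen stood an order of magnitude above all of them. The gene ranked 328, 307 and 247 of 477 by counts in the P8 marrow, untreated spleen and fetal liver, and 112 after PHZ. Of 20 negative control probes, which target no RNA of the mouse, the highest gave 40, 77, 105 and 76 counts in the marrow, untreated spleen, fetal liver and PHZ-treated spleen, so even the lowest Saa3 total was 7.65 times that of the strongest control of its section.

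Relative to the untreated spleen, the Saa3 level after PHZ was 22.9 times higher (21.3 to 24.6). Among 343 genes with at least 1000 counts over both spleens, this was surpassed only by Plek2 (75.4-fold, a pleckstrin relative of maturing red cells) and Rhd (24.0-fold, a red cell membrane protein). Hemgn (18.6-fold) and Klf1 (17.9-fold), nuclear proteins of erythroid cells, came next. At least 2-fold higher were 60 of the 343 genes, or 17.5%, and at least 2-fold lower 122, or 35.6%. The next gene outside the erythroid list was Cxcl2 (14.6-fold), a chemokine that draws neutrophils.

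Both the number of cells with Saa3 and the amount in each of them differed. In the untreated spleen, 779 of 108327 cells, 0.719% (0.670 to 0.771), held a Saa3 transcript, and 758 of these held just 1. After PHZ, 10866 of 94492 cells did, 11.5% (11.3 to 11.7), of which 3980 held at least 2, 777 at least 5 and 103 at least 10. The fullest cell held 24 transcripts after PHZ, 5 in the untreated spleen, 7 in the fetal liver and 9 in the P8 marrow. The share of cells with at least 1 transcript was 16.0 times that of the untreated spleen, and the share with at least 2 was 217 times higher (142 to 351). A rise in the mean count per cell would itself give a larger ratio at a higher limit. These ratios therefore do not separate more cells with Saa3 from more Saa3 per cell. Cells with at least 2 transcripts held 66.6% of all Saa3 after PHZ and 6.99% in the untreated spleen.

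**Figure D1:**
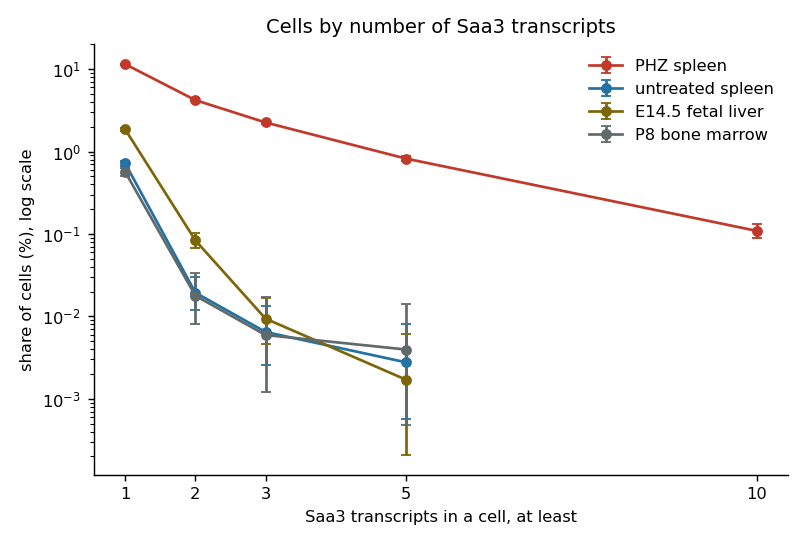
The share of cells with at least 1, 2, 3, 5 or 10 Saa3 transcripts is plotted on a log axis for the 4 sections, with exact binomial 95% intervals; points at 0 are left out. The 3 other sections fall steeply from below 2% at 1 transcript, whereas the PHZ-treated spleen goes from 11.5% to 0.109% at 10.

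Other acute phase and inflammatory genes of the panel differed in direction between the spleens. Of the 5 ranked acute phase and complement genes, Serpina3n, a protease inhibitor, was 3.77-fold higher and haptoglobin (Hp), which binds free hemoglobin, 2.00-fold (1.94 to 2.06), just under the limit for a call. C3, the central complement component, was at 0.501 of its untreated level. Of 13 ranked chemokines, 8 were at least 2-fold higher, among them Ccl7 (10.6-fold) and Ccl2 (10.3-fold), which attract monocytes, and Ccl5, a T and NK cell product, was lower at 0.171. Of 13 ranked genes of cytokines and innate sensing, 4 were higher and 7 lower, and Il1b, an inducer of the acute phase, stood at 0.650. Of the receptors reported for serum amyloid A, none was 2-fold higher: Cd36 stood at 1.03 times its untreated level, Tlr4 at 0.581 and P2rx7 at 0.330. Over the 342 other ranked genes, the median ratio was 0.676. Of all 343 ranked genes, 17.5% were at least 2-fold higher and 35.6% at least 2-fold lower.

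The cells that carried Saa3 after PHZ were compared with those that did not by co-detection, the share of cells with at least 1 transcript of another gene. Because cells with Saa3 held a median of 127 other transcripts and those without 101, each cell was thinned to 50 transcripts other than Saa3, which left 9941 cells with Saa3 and 69843 without. Of 272 genes with at least 1000 counts, 52, or 19.1%, were seen at least 1.5 times as often in cells with Saa3, and 26, or 9.56%, at most 1/1.5 times as often. Of the 10 highest ratios, 2 belonged to the mesothelial list, 2 to the monocyte list and 1 to the neutrophil list. By list, 10 of 12 neutrophil genes (median 1.89) and 5 of 7 monocyte genes (median 2.05) reached 1.5, against 19.1% of all. No gene of these lists was at or below 1/1.5. Upk3b, a uroplakin of the mesothelium, was seen in 0.884% against 0.224% of cells (ratio 3.95), the keratin Krt19 reached a ratio of 3.21 and Igfbp6, an IGF binding protein of mesothelial and stromal cells, 2.81.

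F13a1, the A chain of coagulation factor XIII and a gene of the monocyte list, was seen in 12.8% of cells with Saa3 and 3.56% of the others (3.60). Hp followed with 11.7% against 3.87% (3.02), and Ccr2, the receptor that brings monocytes out of the marrow, with 4.31% against 1.60% (2.69). The chemokines Ccl7 (2.61) and Ccl4 (2.40), the C5a receptor C5ar1 (2.40) and the neutrophil collagenase Mmp8 (2.34) completed them. The lowest ratios were those of Dsc3 (0.318), Insm1 (0.370), Scin (0.374), Foxp3, the regulatory T cell factor (0.394), and 2610528A11Rik (0.416). The 10 erythroid genes had a median ratio of 0.832, from 0.725 for Rhd to 0.913 for the red cell anion exchanger Slc4a1, and none was past the limit in either direction. Macrophage genes were mixed: the 3 C1q genes lay between 1.06 (C1qc) and 1.13 (C1qb), the red pulp factor Spic was at 1.29, the adhesion receptor Adgre1 at 1.97 and Ms4a7 just past the limit of 1.5, whereas Timd4, a receptor for dying cells, was at 0.509. Over all ranked genes the median was 1.03.

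**Figure D2:**
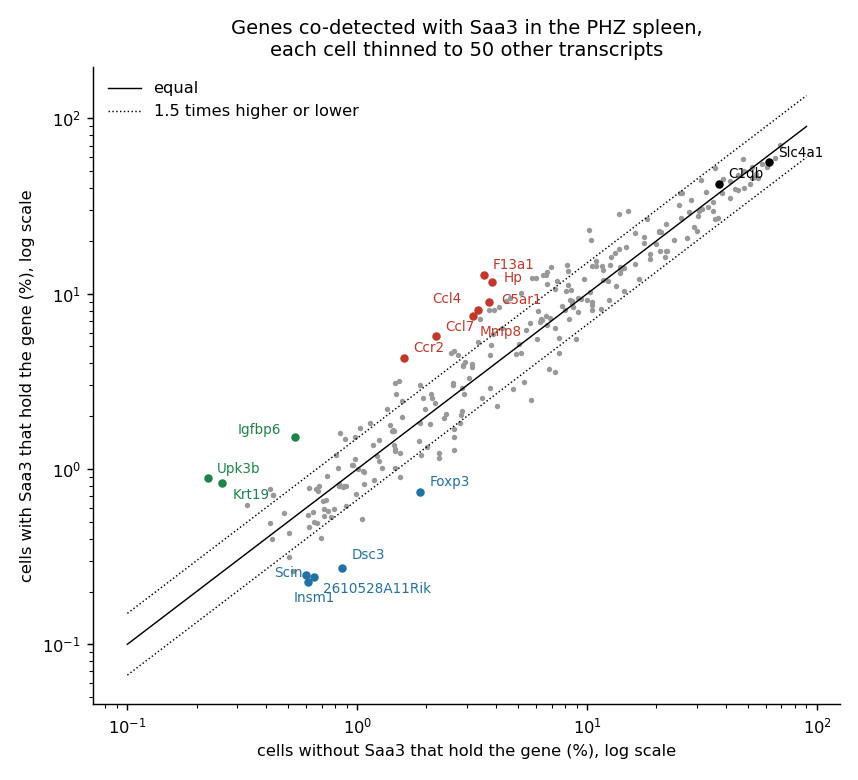
Each of 272 genes is placed by the share of PHZ-treated spleen cells without Saa3 (horizontal) and with Saa3 (vertical) that hold it, in percent on log axes, after thinning; red and green mark the 10 highest ratios, blue the 5 lowest, dotted lines a ratio of 1.5 either way. F13a1, at 12.8% against 3.56%, and Upk3b, at 0.884% against 0.224%, lie farthest above the line of equality.

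Segmentation assigns transcripts to expanded nuclei, so neighbors can share an outline. When outlines were dropped and the transcripts within 3 µm of a Saa3 transcript were compared with the section as a whole, F13a1 (3.89), Hp (3.64) and Ccr2 (3.48) kept high ratios while Upk3b stood at 2.77 and Krt19, no longer among the 10 highest, at 2.15. When only transcripts over a nucleus were used, with each cell thinned to 25 of them, the ratio of F13a1 was 5.58 and that of Hp 4.13. Upk3b (2.33) and Krt19 (2.21) left the 10 highest, whereas Igfbp6, at 2.97, stayed. In mesothelial-gated cells the nucleus took a median of 6.74% of the cell area, and 24.4% of their transcripts lay over it. Of the 52 genes at 1.5 or above, 48 were so too within 3 µm and 47 over the nucleus.

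The levels of most of the 10 genes with the highest ratios went up with the number of Saa3 transcripts in a cell. These genes were picked by co-detection with Saa3, so their rise from cells without Saa3 restates that choice. Krt19 and Igfbp6 stood lower with 10 or more Saa3 transcripts (275 and 659 CPM) than with 5 to 9 (748 and 1040 CPM). F13a1 stood at 871 CPM of the other transcripts in cells without Saa3, at 2187 in cells with 1, at 3343 with 2, at 6066 with 3 or 4, at 8007 with 5 to 9 and at 9664 with 10 or more. Hp went from 1018 to 10103 CPM and Ms4a6c, a membrane protein of monocytes, from 3421 to 21744 over the same range. Spic went from 3346 to 7138 CPM. Slc4a1 ran the other way, from 42446 to 12739 CPM, while C1qb went from 13369 to 19383. The cells with more Saa3 were also larger and held more other transcripts, with a median area of 51.2 µm² without Saa3, 67.6 µm² with 1 transcript and 117 µm² with 10 or more. What part cell size and overlap of cells have in these levels was not tested.

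**Figure D3:**
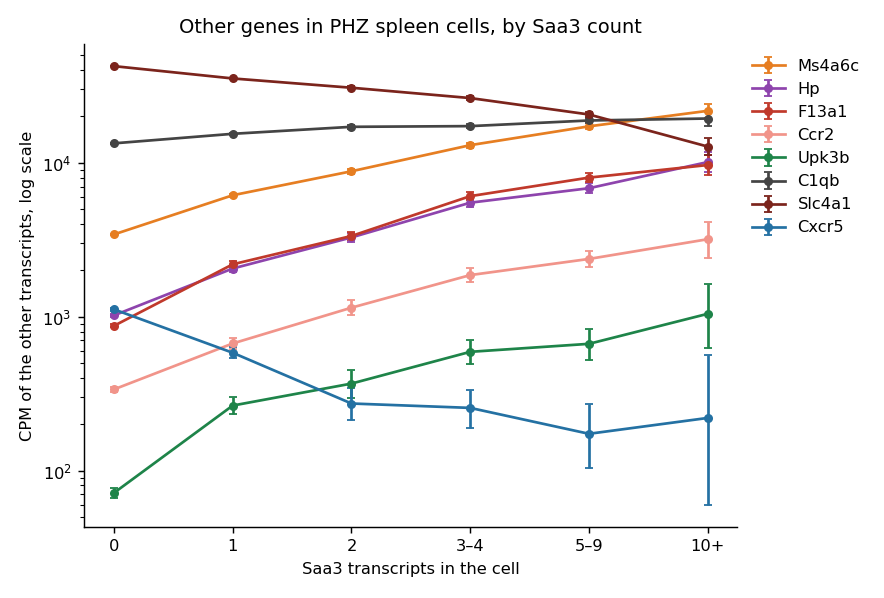
Levels of 8 genes in PHZ-treated spleen cells are plotted in CPM of the transcripts other than Saa3 (log axis) against the number of Saa3 transcripts in the cell, with exact Poisson 95% intervals. F13a1 goes from 871 to 9664 and Upk3b from 71.5 to 1043, whereas Slc4a1 and Cxcr5 decline. F13a1, Hp, Ccr2 and Upk3b were picked by their co-detection with Saa3.

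Cells were then gated by marker lists, with at least 3 transcripts of a list for a cell to pass, and a cell could pass several gates. After PHZ, 40.4% (35 to 46.0) of 319 mesothelial-gated cells held Saa3, as did 24.0% of 12053 neutrophil-gated, 22.1% of 20145 monocyte-gated and 20.8% of 2283 early granulocyte-gated cells. Cells that passed the monocyte gate and no other held Saa3 in 9.61% of 666, below the 11.5% of all cells. Their Saa3 level, 3541 CPM, was nevertheless above the 1803 CPM of all cells and near the 3625 CPM of the whole monocyte gate. Neutrophil-gated cells that passed no other gate held it in 18.3% of 797, at 7651 CPM. Megakaryocyte-gated cells stood at 20.1% of 7777 and NK-gated cells at 18.8% of 463. Macrophage gates lay lower, with 14.1% for C1q, 13.6% for red pulp, 14.6% for marginal zone and 16.4% for other macrophages. T cells, at 7.5% of 7865 cells and a median of 85 transcripts, and follicle cells, at 8.46%, were the lowest of all gates. With every cell thinned to 50 transcripts, the mesothelial share was 18.7%, the neutrophil share 14.7%, the monocyte share 12.6%, the NK share 11%, the megakaryocyte share 9.49%, the C1q share 7.14%, the T cell share 4.34% and the follicle share 3.90%.

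Monocyte-gated or neutrophil-gated cells made up 29.2% of the cells after PHZ and held 64.7% of the Saa3 transcripts. Of the 777 cells with at least 5 transcripts, 674, or 86.7%, were in these gates, and so were 95 of the 103 with at least 10. The gates overlapped: erythroid-gated cells, 67.3% of all, held 73.9% of the transcripts, red pulp macrophage-gated cells, 46.7%, held 59.2%, and C1q-gated cells, 35.2%, held 46.1%. Of the 777 cells, 574 were erythroid-gated, 530 red pulp macrophage-gated and 406 C1q-gated, of which 49 passed the C1q gate and neither the monocyte nor the neutrophil gate. The mesothelial gate, with 0.338% of the cells, held 1.75% of the transcripts.

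The monocyte list includes genes such as Plbd1 and Ms4a6b that many untreated spleen cells held, and 50.3% of untreated cells passed it. A narrower gate of at least 2 transcripts of F13a1 and Ccr2, and likewise one of Upk1b and Upk3b, was added after the co-detected genes were seen, so their shares restate that choice. The F13a1 and Ccr2 gate took 3999 untreated and 3196 PHZ-treated cells, a similar share of each section (3.69% and 3.38%). Of these, 0.725% held Saa3 in the untreated and 40.6% (38.8 to 42.3) in the PHZ-treated spleen. Their Saa3 level went from 67.7 to 6725 CPM, a 99.3-fold difference (72.5 to 140). The untreated values, from 39 counts, were near those of all untreated cells (0.719% and 78.7 CPM). The makeup of the gated cells was not the same in both spleens. Ccr2 in the cells that passed this gate alone stood at 19196 CPM untreated and 5366 after PHZ, and F13a1 at 7187 and 15743.

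Some mesothelial-gated cells held Saa3 without PHZ. In the untreated spleen none of these gated cells passed that gate alone, and their median depth was 169 transcripts against 84 for all cells. Of 217 mesothelial-gated cells in the untreated spleen, 15, or 6.91% (3.92 to 11.1), held a transcript, at 496 CPM, and after PHZ the level was 5427 CPM, 10.9 times higher (7.18 to 17.5). T cells were at 0.728% and erythroid-gated cells at 0.728% in the untreated section, and most other gates lay between 0.526% and 1.09%. The exception beside the mesothelial gate was the fat gate of Car3, Retn and Pck1, with 21 of 483 cells (4.35%). In the PHZ-treated section only 3 cells passed the fat gate. Of the 7 untreated cells with at least 3 Saa3 transcripts, 5 lay within 50 µm of a cell with at least 2 Upk1b and Upk3b transcripts, as did 3.43% of all cells. Of the same 7, 3 passed the fat gate, all 7 the monocyte gate, and 2 held Upk1b or Upk3b themselves.

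The gate of Upk1b and Upk3b and that of F13a1 and Ccr2 shared few cells, and little overlap is likely between gates this narrow. After PHZ, 240 cells passed the Upk gate alone, 3164 the F13a1 and Ccr2 gate alone and 32 both. The 32 made up more of the 272 Upk-gated cells than 3.38%, the share of all cells in the other gate. Of the 122 cells of the Upk gate with Saa3, 23 passed both. In cells of the Upk gate alone, 41.2% held Saa3, with 19134 CPM of Upk3b and 505 CPM of F13a1. In those of the F13a1 and Ccr2 gate alone, 40.2% held it, with 13.0 CPM of Upk3b and 15743 CPM of F13a1. These marker levels follow from how the gates were defined. Of the 32 cells that passed both gates, 71.9% (53.3 to 86.3) held Saa3. The cells outside both made up 96.4% of the section and held 80.7% of the Saa3 transcripts, less than their share of cells. Of them, 10.4% held Saa3.

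More F13a1 in a cell went with Saa3 in a larger share of cells, up to 4 to 7 transcripts of F13a1. F13a1 was picked by its co-detection with Saa3, so these steps restate that choice. Without F13a1, 9.71% of PHZ-treated spleen cells held Saa3, with 1 transcript 24.7%, with 2 or 3 40.4%, with 4 to 7 54.2% and with 8 or more 51.5%, while the median depth of these cells went from 101 to 260 transcripts. In the untreated spleen the same steps gave 0.715%, 0.546%, 1.66%, 1.41% and 2.82%, the last from 2 of 71 cells.

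**Figure D4:**
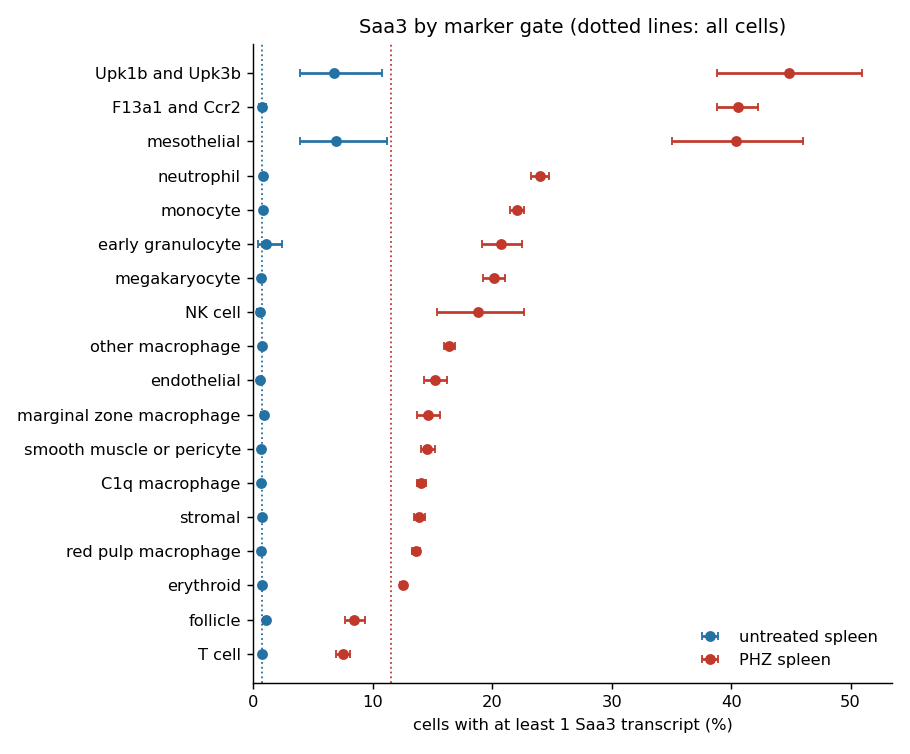
The share of cells with at least 1 Saa3 transcript is plotted in percent for each marker gate that at least 50 PHZ-treated cells passed, in both spleens, with exact binomial 95% intervals and dotted lines at the share over all cells. After PHZ the mesothelial gate (40.4%) lies highest of the list gates, neutrophils (24.0%), monocytes, early granulocytes, megakaryocytes (20.1%) and NK cells (18.8%) follow, and T cells (7.5%) are lowest; in the untreated spleen the mesothelial gates (6.91% and 6.78%) lie farthest from the line; the fat gate (4.35%) is not drawn.

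In the 4 gates examined, cells held Saa3 more often beside a cell rich in it. Erythroid-gated cells outside the monocyte, neutrophil and mesothelial gates held Saa3 in 33.2% with a neighbor of at least 3 Saa3 transcripts. Without such a neighbor 5.86% held it, and the median depths were 123 and 121 transcripts. For T cells outside the same gates the shares were 41.8% of 98 cells and 3.40% of 3614, at median depths of 95 and 69 transcripts. Monocyte-gated cells held it in 57.0% with such a neighbor and in 15.1% without, at medians of 143 and 124 transcripts. Mesothelial-gated cells held it in 65.6% with one and in 22.9% without. How much of the Saa3 in any gate was misassigned from a neighbor was not tested.

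In the tissue, Saa3 lay in patches. A contact was a link of up to 400 µm between neighboring cell centers in a Delaunay network, so the cells need not touch. Contacts between 2 positive cells were compared with the mean number that would arise if the positive labels were exchanged among all cells. After PHZ there were 10953 such contacts against 3746 expected, a log2 ratio of 1.55 (1.52 to 1.57). In the untreated spleen there were 47 against 16.8, a log2 ratio of 1.49 (1.04 to 1.90). Contacts share cells, whereas the intervals of all these contact ratios take each contact as a separate count. They therefore do not measure the spread and cannot compare the spleens. Among the 91 genes of the PHZ-treated spleen seen in 5 to 20% of cells, Saa3 ranked 27 by this ratio, the median was 1.29, and the chemokine Cxcl13 of the follicles reached 2.24. For cells with at least 2 transcripts the log2 ratio was 2.56 after PHZ and 9.01 (7.57 to 10.1) in the untreated spleen, there from 6 contacts against 0.0116 expected. For at least 5 transcripts, which 0.822% of PHZ-treated cells held, it was 3.20, against 2.34 (Sox17) to 4.75 (Lyve1) and a median of 3.64 for the 8 genes seen in 0.7 to 1% of cells, of which 1 lay below Saa3.

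Of 2822 squares of 50 µm in the PHZ-treated spleen, the fullest 10% held 44.4% of Saa3 and 42.7% of F13a1. The value for Il1b, with almost as many counts as Saa3 (20601), was 47.1%. Upk3b, absent from 91.6% of squares, stood at 100%. C1qb (27.3%) and Slc4a1 (26.6%) had many more counts, which lowers such a share. A single square held up to 92 Saa3 transcripts, and 16.8% of squares held none. In the untreated spleen, the fullest 10% held 48.7% of its 815 Saa3 counts. Over 2610 squares of the PHZ-treated spleen with at least 1000 transcripts, log2 levels were correlated with that of Saa3. The highest were Alox5ap, which serves leukotriene synthesis (Pearson r = 0.42), F13a1 (0.41), the integrin Itgam (0.36), Ms4a6c (0.35) and Cd93 (0.33). These squares share 1 section and its depth and cell density, so the coefficients are a description.

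Saa3 was least frequent in the lymphoid zones. When squares were divided into 5 equal groups by their T cell and follicle transcripts, an analysis added after the map was seen, 11.3% to 16.1% of cells held Saa3 in the 4 groups with fewer of them and 6.85% in the group with the most. The highest share, 16.1%, and the highest level, 2577 CPM, were those of the fourth group, the second richest in T cell and follicle transcripts, where F13a1 was highest too (1698 CPM). Depth was lowest in the fifth group, at a median of 70 transcripts against 111 to 126. In the untreated spleen the fifth group was the highest, with 108 CPM of Saa3 against 57.0 CPM in the first. The outermost 50 µm of the PHZ-treated section held 75% of the Upk1b and Upk3b transcripts but 6.28% of Saa3, at 2166 CPM. The next ring inward stood at 1397 CPM and the one after it at 1548 CPM. The ring that ends 400 µm from the edge had 1994 CPM, and the section further in 1831 CPM.

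**Figure D5:**
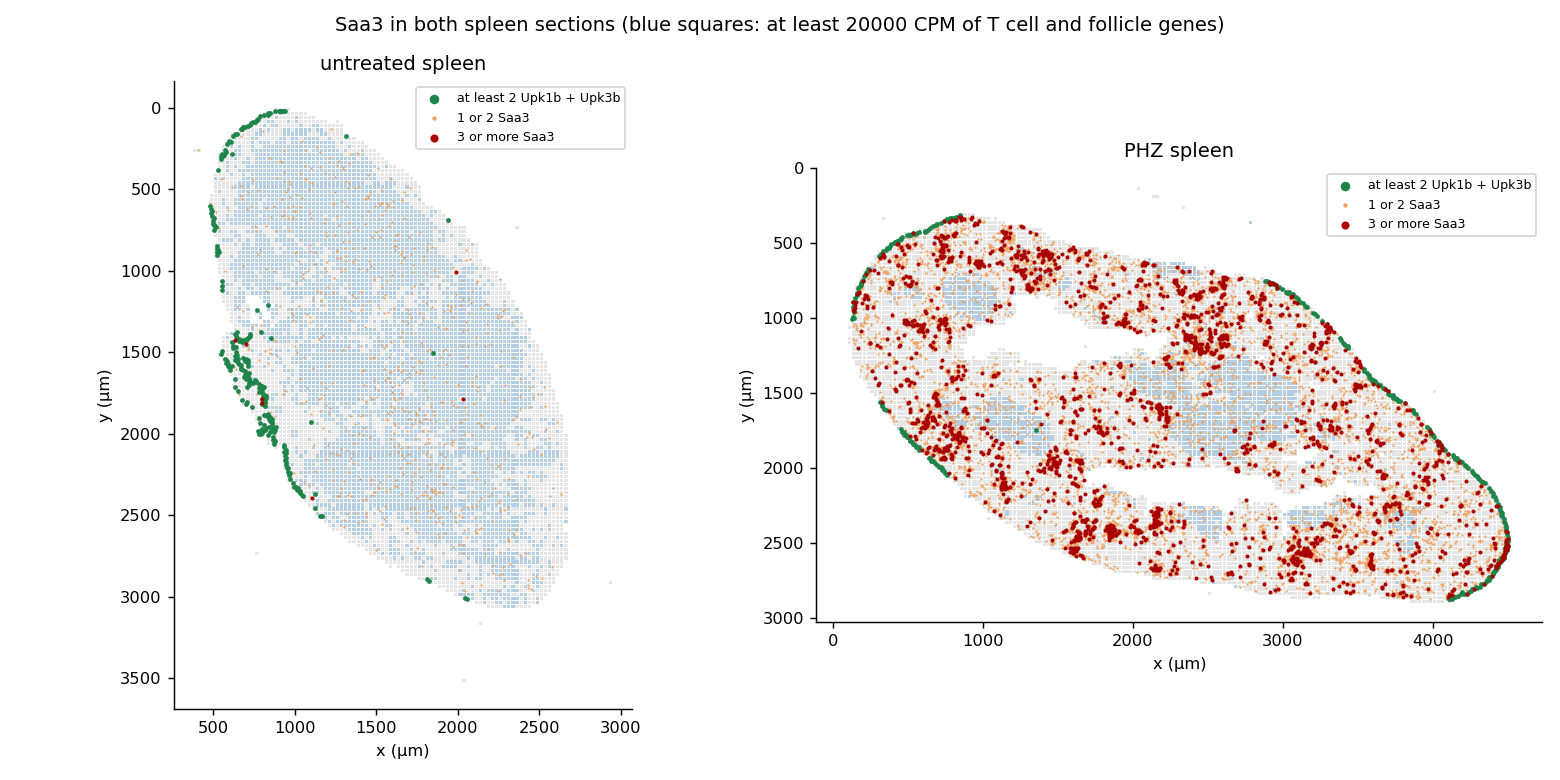
Both spleen sections are drawn in µm, with cells of 1 or 2 Saa3 transcripts in orange, of 3 or more in dark red and of at least 2 Upk1b and Upk3b transcripts in green, over squares of 25 µm that are blue where T cell and follicle genes reach 20000 CPM and gray elsewhere. Cells with 3 or more number 2132 after PHZ and 7 in the untreated spleen; after PHZ they lie in patches, mostly outside the blue squares, and the green cells line parts of the rim.

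Saa3 was less nuclear after PHZ than in any other section. Of the transcripts in cells, 44% (43.3 to 44.7) lay over a nucleus in the PHZ-treated spleen, against 77.3% (74.3 to 80.1) in the untreated spleen, 65.8% (63.8 to 67.7) in the fetal liver and 68.0% (62.4 to 73.2) in the P8 marrow. All genes together gave 51.0%, 58.9%, 57.2% and 48.9% in the same order, so Saa3 lay below the section's value after PHZ and above it in the other 3. By nuclear share Saa3 ranked 90 from the lowest of 273 genes after PHZ and 275 of 293 in the untreated spleen. In the PHZ-treated spleen cells with Saa3, 46.5% of the transcripts of other genes were nuclear, compared with 51.7% in cells without Saa3. The direction depended on the count. With 1 Saa3 transcript, 41.8% of Saa3 was nuclear against 46.7% of all genes, and with 2 to 4, 42.5% against 46.1%. In cells with 5 or more it was 48.9% (47.6 to 50.3) against 45.5%. Saa3 in neutrophil-gated cells was 49.9% nuclear (all genes 47.2%), in monocyte-gated cells 46.1% (46.2%), in C1q-gated cells 41.3% (45.9%) and in mesothelial-gated cells 20.8% (24.4%), whereas in erythroid-gated cells it was 43.2% against 51.5% for all genes.

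Some Saa3 lay outside every outlined cell. These were 885 of 21492 transcripts after PHZ, 4.12% (3.86 to 4.39), and 79 of 894 in the untreated spleen, 8.84% (7.06 to 10.9), against 1.73% and 0.595% for all genes. The share of Saa3 outside cells ranked 10 from the highest of 273 genes after PHZ and 1 of 293 in the untreated spleen. The decoding quality of Saa3 also differed: 63.8% of its transcripts reached a quality score of 30 after PHZ, 11 from the lowest of 276 genes with a median of 82.8%, whereas 84.6% did so in the untreated spleen. The share was 65.7% in cells with 1 Saa3 transcript, 60.2% in those with 3 or 4, 67.0% in those with 10 or more and 80.8% outside cells. Counted at that score, Saa3 was 17.8 times higher after PHZ. Why the quality was low in this section was not tested, so it is not known whether every transcript below that score was Saa3, which bears on the count and on the 22.9-fold difference alike.

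The fewer Saa3 transcripts of the E14.5 fetal liver and the P8 marrow were followed in the same way. In the E14.5 fetal liver, the most co-detected genes were 0610005C13Rik (ratio 3.06), the metabolic coactivator Ppargc1a (2.92), the chemokine Cxcl1 (2.86) and the hepatocyte factor Prox1 (2.76). Hepatocyte-gated cells held Saa3 in 2.82% (2.70 to 2.95) of 67347 cells, and all other cells in 0.564% (0.500 to 0.634), at median depths of 189 and 140 transcripts. A cell could pass several gates, and 3 others stood higher. In the fat gate (Car3, Retn and Pck1), 6.11% of 6200 cells held Saa3, at 286 CPM, but none of the 6200 passed that gate alone. The mesothelial gate, which includes the keratins Krt8 and Krt19, stood at 4.95% (236 CPM). The stromal gate stood at 3.03% (156 CPM), against 149 CPM for hepatocytes. These gates are ranges of counts, so the first of them does not show fat cells there. The Upk1b and Upk3b gate there was at 1.15%. In the P8 marrow, the scavenger receptor Marco had the highest co-detection ratio of 253 genes (4.41 over 275 positive cells), and 17 of 244 cells in the gate of Marco and Siglec1 held Saa3, 6.97% (4.11 to 10.9), against 0.535% of the other cells. That gate held 10.8% of the marrow's Saa3, or 6.51% without the 2 marrow cells that held at least 5 transcripts, both of them in the gate, while cells in the monocyte or neutrophil gates, 48.1% of all, held 66.3%. The Marco and Siglec1 gate stood at 0.883% in the untreated and at 14.6% in the PHZ-treated spleen.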

How the data were processed

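The authors deposited raw transcript counts for every gene and outlined cell, cell and nucleus areas as a signal in µm², and, for the 4 sections on the smaller panel, single transcripts with a quality score. Space Ranger is named in their methods and Xenium Onboard Analysis in the run files. The build used to design the probes is not given in the sources used here. Counts per cell rebuilt from transcripts at a score of at least 20 equalled the deposited ones exactly. Cells with at least 5 detected genes were kept. Levels are CPM over all gene transcripts. Thinned shares are the exact hypergeometric chance of keeping a transcript; these steps were tested on simulated data. Intervals are exact Poisson or Clopper-Pearson at 95%, and ratios use a conditional binomial interval. With 1 section per condition, no p-value was computed. Doublets were not called. Saa3 and the marker and pathway lists were chosen with earlier results of these data known. Genes were named if they were among the 10 highest or 5 lowest co-detection ratios, the 5 highest correlations over squares or the 5 largest rises between the spleens, or belonged to a list described. Gates by F13a1 and Ccr2 and by Upk1b and Upk3b, contact classes, lymphoid groups, edge distance, higher count limits and the omission of rich marrow cells were added after seeing the data. Python 3.11.15, numpy 2.4.6, scipy 1.17.1 and pandas 2.3.3 were used.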

Additional observations from a re-analysis of the deposited data

Results flagged for a closer look

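Saa3 was counted among transcripts that lay outside every segmented cell and entered no level above. Per 1000000 such transcripts there were 4390 of Saa3 in the PHZ-treated spleen and 1276 in the untreated spleen, and the E14.5 fetal liver and P8 marrow gave 40.9 and 7.85.

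Saa1, a relative of Saa3 on the larger panel, gave 26 counts in 26 cells of the 89-week bone marrow, where the highest of 40 negative control probes gave 18. By counts it ranked only 4779 of the 5050 genes there, near the floor of the panel.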

How the results depend on the processing

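No paired analysis was possible because each condition was 1 section. The PHZ-treated level was higher under every scaling tried. The ratio to the untreated spleen, 22.9, was 17.8 at a quality score of at least 30, 29.0 per cell, 16.7 per mm² of tissue and 15.1 over nuclei, and between 21.5 and 23.8 without Hbb-bt, with transcripts outside cells, in cells of at least 20 transcripts or without squares with fat-like cells. As shares of cells it was 217, 349 and 297 at 2, 3 and 5 transcripts, limits chosen after seeing the data. The PHZ-treated level of 1803 CPM was 1418 at the stricter score, 1556 over nuclei, 1848 with transcripts outside cells and 1888 without Hbb-bt. The share of positive cells was 4.21% at 2 transcripts and 6.74% after thinning. The number of co-detected genes, 52, ranged from 57 to 67 under the other settings. The monocyte-gate share of 22.1% was 27.8% at 5 list counts, 9.61% in cells that passed no other gate, 16.3% over nuclei and 40.6% for F13a1 and Ccr2. The mesothelial share was 28.0% over nuclei, and no mesothelial-gated cell passed that gate alone, so this setting gave no value. The log2 contact ratio was 1.17 with the expected number taken within tiles of 200 µm, and 2.56 and 3.20 for at least 2 and 5 transcripts. With squares of 100 µm in place of 50 µm, the fullest 10% held 35.2% of Saa3 in place of 44.4%. The nuclear share of 44% was 46.5% at the stricter score and 42.2% with transcripts outside cells. Marker gates are ranges of counts: of 20145 monocyte-gated cells, 6332 lay at the minimum of 3. Animals, and the time after injection, vary in ways 1 section cannot show.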

Other observations

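On the larger panel, which lacks Saa3, Saa2 gave 8 counts in the 89-week bone marrow, fewer than the highest negative control probe. In the E13.5 fetal liver, with 5254 cells, Saa1 gave 2 counts and Saa2 1, with a highest control of 1. These levels cannot be set against Saa3, since the panel, run and segmentation differed.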
